A study of Zea mays with 6 samples.

Results

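The 8 genes described here encode the sucrose synthases and starch synthesis enzymes that are best known from kernel mutants of maize. They were selected by gene identifier, and no measured value entered that rule, from the 45578 entries of the expression tables, of which 43789 are coding genes. All 8 identifiers were found in every table. The material was the F1 hybrid B73×Mo17, a single genotype carrying 1 genome copy of each inbred parent, harvested as aerial tissue of seedlings 14 d after sowing, with no treatment named in the labels. Libraries of 3 kinds were analysed with 2 replicates each, namely input RNA-seq of polyadenylated RNA (mRNA abundance), polysome profiling (translational level), and m6A-seq (immunoprecipitation with an antibody against N6-methyladenosine). The parental inbred lines were not analysed here, so every comparison below is between kinds of RNA of the hybrid and none is between genotypes.

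Sucrose that reaches a growing tissue is cleaved by sucrose synthase into UDP-glucose and fructose, or by invertases into glucose and fructose. ADP-glucose pyrophosphorylase, an enzyme of large and small subunits, then makes ADP-glucose, the glucosyl donor of starch. Granule-bound starch synthase extends amylose, while soluble starch synthases, branching enzymes, and debranching enzymes together build amylopectin. The endosperm stores starch for germination, whereas a leaf makes transitory starch by day and breaks it down at night. Maize uses separate paralogs for many of these steps in the endosperm and in the leaf.

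In the seedling, the genes differed widely in abundance. The sucrose synthase genes *sus1* and *sh1* were abundant, *bt2* and *su1* were present at lower levels, and *su2*, *sh2*, *ae1*, and *wx1* stayed far below an FPKM (fragments counted for a gene, relative to its transcript length and to all fragments of the library) of 1 in all 4 libraries. The study's methods take a gene as expressed from an FPKM of 1. By the mean of the mRNA libraries, 4 of the 8 genes reached this limit, beside 44.3% of all coding entries. Shared m6A peaks were found in *bt2* and *su1* of the 4 expressed genes, beside 52.4% of expressed coding entries, and in *sh2* of the 4 genes below 1, beside 4.76% of such entries. Their summits lay 93 to 109 bp from the annotated end of the gene. Between polysome and mRNA libraries, 1 of the 4 expressed genes, *sh1*, passed the test as lower in polysome RNA, beside 22.2% of all entries tested, and this call was lost without mRNA replicate 2.

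Some features of the libraries touch all values below. Non-coding RNA entries (those whose identifier starts with ENSRNA) took 58.9 to 59.6% of all FPKM in the mRNA libraries and 24.6 to 25.9% in the polysome libraries. A polysome to mRNA ratio therefore depends on whether these entries are counted in the scale, and values on both scales are given where the call or the value changes. Coding entries at or above an FPKM of 1 numbered 19241 and 19518 in the mRNA libraries and 17694 and 18086 in the polysome libraries. Read counts were not part of the tables and could not be recovered from the low values, so the depth is unknown. The spread between 2 replicates is the only measure of precision. The p-values below measure only such spread, with that of each gene drawn toward the spread of other entries of like level. The labelled tissue could not be checked against marker genes, because the tables used here pair no names with these identifiers.

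**Figure D1:**
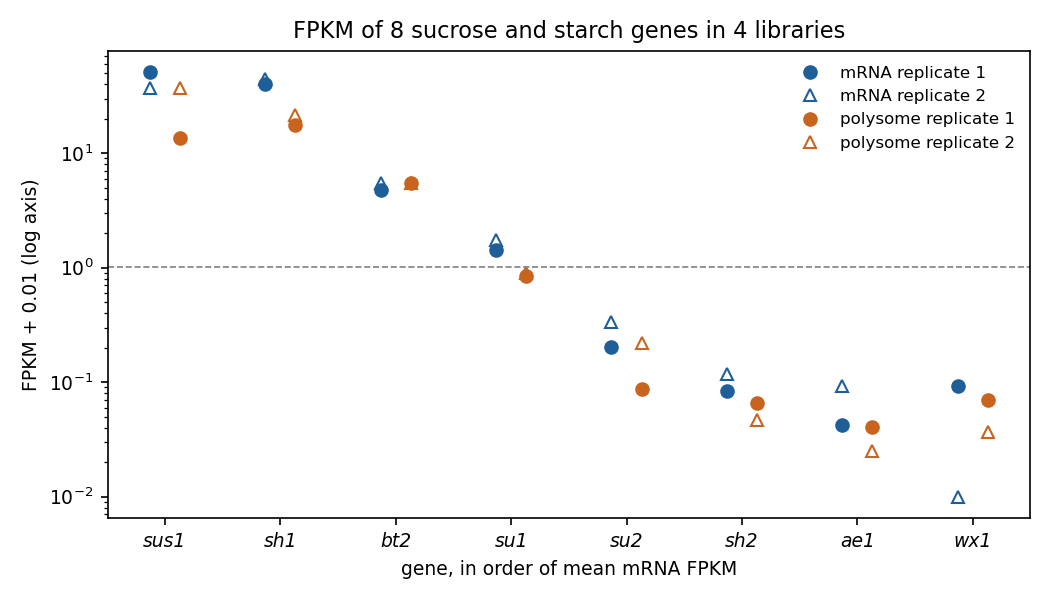
FPKM of each gene in the 2 mRNA and 2 polysome libraries, on a log axis after adding 0.01, with genes in order of mean mRNA FPKM; circles and triangles are replicates 1 and 2, and the dashed line marks an FPKM of 1. The genes *sus1*, *sh1*, and *bt2* lie above the line in all 4 libraries, *su1* lies above it in mRNA only, and the other 4 genes lie below it throughout.

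The gene *sus1* (*Zm00001d047253*, on chromosome 9 from 124178172 to 124184872, minus strand) encodes a sucrose synthase known from many vegetative tissues. Its mRNA FPKM was 51.2 and 37.3 in replicates 1 and 2, or 44.2 ± 9.82 (SD, n = 2), the highest mean of the 8 genes and above 97.1% of coding entries. Its polysome FPKM was 13.6 and 37.1, or 25.3 ± 16.6 (SD, n = 2). The polysome value of replicate 2 was nearly that of the lower mRNA library, whereas replicate 1 was far lower. The absolute log2 difference between the polysome replicates was 1.44, larger than that of 99.6% of the 3569 entries within a factor of 2 of its polysome FPKM. The mRNA replicates differed by 0.46 on the log2 scale, more than 95.8% of the 2216 entries of like mRNA FPKM. Accordingly, the polysome to mRNA ratio, which the study's methods take as translational efficiency, was 0.266 in replicate 1 and 0.994 in replicate 2. Ratios per replicate divide libraries of the same number, which the labels do not say are pairs.

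The gene *sh1* (*Zm00001d045042*, on chromosome 9 from 10906934 to 10912944, plus strand) encodes the sucrose synthase whose loss gives the shrunken kernel. Its mRNA FPKM was 40.0 and 44.3, or 42.1 ± 3.05 (SD, n = 2), above 97.0% of coding entries. Its polysome FPKM was 17.5 and 21.6, or 19.5 ± 2.92 (SD, n = 2). Both polysome values lay below both mRNA values, and the ratio was 0.437 and 0.488 in the replicates. Although *sh1* is named for the kernel, its mRNA level in seedlings could not be told apart from that of *sus1*, since its 2 values fell between those of *sus1*. Within a library, the ratio of *sus1* to *sh1* was 1.28 and 0.842 in mRNA and 0.778 and 1.72 in polysome RNA. These ranges overlap, so neither gene was the more abundant in a repeatable way. The summed FPKM of these genes was 91.2 and 81.6 in mRNA and 31.1 and 58.7 in polysome RNA. Other sucrose synthase genes were not analysed here.

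ADP-glucose pyrophosphorylase was represented by genes for its small and its large subunit, and these differed widely. The gene *bt2* (*Zm00001d050032*, on chromosome 4 from 61315575 to 61321350, plus strand) encodes the small subunit known from the endosperm. Its mRNA FPKM was 4.72 and 5.48, or 5.10 ± 0.536 (SD, n = 2), and its polysome FPKM was 5.43 and 5.51, or 5.47 ± 0.0553 (SD, n = 2). The polysome values differed little from each other and fell within or next to the range of the mRNA values, so the groups overlap. The gene *sh2* (*Zm00001d044129*, on chromosome 3 from 219979958 to 219989574, minus strand) encodes the endosperm large subunit. Its mRNA FPKM was 0.0740 and 0.107, and its polysome FPKM was 0.0552 and 0.0364. The FPKM of *bt2* thus exceeded that of *sh2* by a factor of 63.8 and 51.0 in the mRNA libraries and 98.5 and 152 in the polysome libraries. FPKM is per length of transcript, so the comparison is of transcript levels. The denominators are so low that the size of these factors is uncertain. Other paralogs of either subunit were not analysed here.

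Of the genes for polymer synthesis and trimming, only *su1* was expressed. The gene *su1* (*Zm00001d049753*, on chromosome 4 from 43110569 to 43119167, plus strand) encodes an isoamylase, the debranching enzyme missing in sugary kernels of sweet corn. Its mRNA FPKM was 1.42 and 1.72, or 1.57 ± 0.213 (SD, n = 2), above 60.3% of coding entries. Its polysome FPKM was 0.833 and 0.896, or 0.865 ± 0.0449 (SD, n = 2). Both polysome values were below both mRNA values and also below 1, so the gene entered the test through its mRNA level.

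The gene *su2* (*Zm00001d037234*, on chromosome 6 from 117124065 to 117128209, plus strand) encodes a soluble starch synthase of amylopectin. Its mRNA FPKM was 0.195 and 0.325, and its polysome FPKM was 0.0768 and 0.211, with overlapping ranges. The gene *ae1* (*Zm00001d016684*, on chromosome 5 from 172412995 to 172430415, minus strand) encodes the branching enzyme whose loss raises the amylose share of the kernel. Its span of 17421 bp is the longest of the 8, and its FPKM was 0.0324 and 0.0834 in mRNA and 0.0308 and 0.0149 in polysome RNA. The gene *wx1* (*Zm00001d045462*, on chromosome 9 from 23107329 to 23111318, minus strand) encodes the granule-bound starch synthase that makes amylose in the kernel and is missing in waxy maize. It was listed at 0.0827 and 0 in the mRNA libraries and at 0.0599 and 0.0270 in the polysome libraries. Together, *wx1*, *su2*, *sh2*, and *ae1* summed to an FPKM of 0.384 and 0.516 in mRNA and 0.223 and 0.289 in polysome RNA.

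In order of mean mRNA FPKM, the genes were *sus1*, *sh1*, *bt2*, *su1*, *su2*, *sh2*, *ae1*, and *wx1*. The steps from *sh1* to *bt2*, from *bt2* to *su1*, from *su1* to *su2*, and from *su2* to *sh2* were larger than the spread between replicates, with no overlap of the values. The pairs *sus1* and *sh1*, *sh2* and *ae1*, and *ae1* and *wx1* had overlapping values, so their order is not fixed by these data. In polysome RNA the same 4 genes led, and the order of the last pair, *ae1* and *wx1*, was exchanged with overlapping values. Of the 4 genes below 1, *su2* was the highest and lay above 44.9% of coding entries in mRNA, a share that includes the entries listed at 0.

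To compare polysome and mRNA levels, limma was fitted to log2(FPKM + 0.1) of the 19518 entries whose 4 libraries averaged an FPKM of 1 or more. The threshold was an adjusted P of 0.01 (Benjamini–Hochberg over all entries tested) with a fold change of 1.5. Of all entries tested, 22.2% passed as lower in polysome RNA, 21.1% as higher, and 43.4% in either direction. These shares move with the scale, to 17.2% lower and 26.8% higher with each library centred on its median. They were 45.1% lower and 9.33% higher with ENSRNA entries left out and the libraries rescaled. With 1 library left out, whichever it was, they were 9.44 to 14.7% lower, 13.9 to 14.8% higher, and 24.3 to 28.5% in either direction. Among the 4 genes that entered the test, 1 passed as lower and 0 as higher, and the other 4 genes were too low to be tested. At an unadjusted limma P of 0.05 the counts were 2 lower (*sh1* and *su1*) and 0 higher. The share of all entries at that unadjusted limit was not calculated. With so few genes, these counts are not a result about the group.

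The level of *sh1* was lower in polysome RNA by a log2 fold change of −1.11 (standard error 0.15, limma adjusted P=0.00168), and lower in both replicates. Its ratio of means was 0.464, above that of only 21.0% of the 19871 expressed entries. With ENSRNA entries left out and the libraries rescaled, the log2 fold change was −1.78 and the ratio 0.293. The call was lost without mRNA replicate 2 (limma adjusted P=0.0125, log2 fold change −1.04).

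For *sus1* the log2 fold change was −0.96 (standard error 0.45), with an adjusted P of 0.111 from limma and a 95% interval from −2.07 to 0.15. The ratio of means was 0.573. All 4 values were ordered, with mRNA above polysome, but the gap between the nearest values, 37.3 and 37.1, was small. With ENSRNA entries left out, the log2 fold change was −1.62 (limma adjusted P=0.0154, 95% interval from −2.69 to −0.55) and the ratio 0.365, which did not pass either. The result rested on 1 library. Without polysome replicate 2 the log2 fold change was −1.68 and passed (limma adjusted P=0.00708), and without polysome replicate 1 it was −0.24 (limma adjusted P=0.407).

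For *su1* the log2 fold change was −0.79 (standard error 0.25, limma adjusted P=0.0357), so it did not pass, with a ratio of means of 0.550 and values of 0.586 and 0.521 in the replicates. At this low level the size depends on the value added before taking logs, with a log2 fold change of −0.46 after adding 1 and −0.85 after adding 0.01. On the scale without ENSRNA entries the log2 fold change was −1.40 (limma adjusted P=0.00307), past the threshold, and the ratio was 0.347. Since *su1* reached the filter through its mRNA values, its difference is given as a description. For *bt2* the log2 fold change was 0.10 (standard error 0.16, limma adjusted P=0.596), with a ratio of means of 1.07. Its 95% interval, from −0.30 to 0.50, lies inside a fold change of 1.5 in either direction on this scale. On the scale without ENSRNA entries the direction turned, with a log2 fold change of −0.55 (limma adjusted P=0.0316) and a ratio of 0.676. The median log2 difference of all entries tested was −0.79 on that scale and −0.14 on the deposited scale. The value of *bt2* was thus above the median on both.

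Of the 4 expressed genes, *sh1*, *sus1*, and *su1* had polysome values that did not overlap their mRNA values and were lower, an ordering found in 45.5% of all entries tested. The expressed entries as a whole had a median ratio of 0.845, with quartiles of 0.506 and 1.56. By the ratio of means, *sh1* (0.464) was below this lower quartile and *bt2* (1.07) above the median. Between the lower quartile and the median lay *su1* (0.550) and *sus1* (0.573). Ratios of same-numbered libraries gave the same places for *sh1*, *su1*, and *bt2*. Those libraries are not known pairs, and another pairing could move *sh1* and *su1* across the lower quartile, so these places are not fixed. For *sus1* the ratio of 0.266 in replicate 1 was below the lower quartile and that of 0.994 in replicate 2 above the median, so it has no fixed place.

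**Figure D2:**
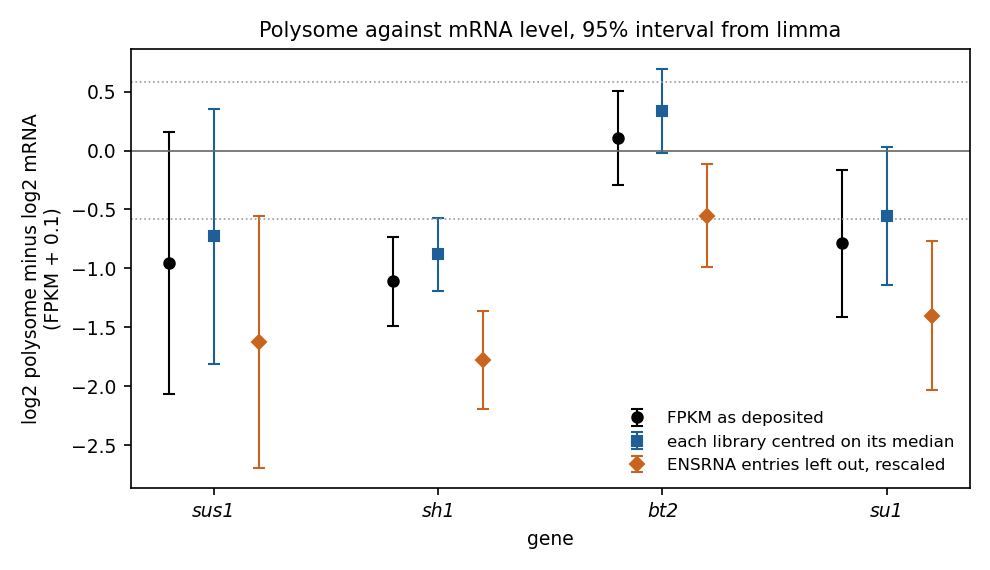
Log2 difference between polysome and mRNA FPKM (after adding 0.1) of the 4 expressed genes, with 95% intervals from limma, on 3 scales; dotted lines mark a fold change of 1.5 in either direction. On each scale *bt2* has the highest value of the 4 genes, and for *sus1* the interval is the widest.

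The ratio of 2 genes within a library does not move with the scale of that library, and such ratios were calculated after the values had been seen. The ratio of *bt2* to *su1* was 3.32 and 3.18 in mRNA and 6.52 and 6.15 in polysome RNA. The ratio of *sh1* to *bt2* was 8.48 and 8.09 in mRNA and 3.22 and 3.92 in polysome RNA. Relative to *su1*, *sh1* was at 28.1 and 25.7 in mRNA and at 21.0 and 24.1 in polysome RNA. Thus *bt2* was higher in polysome RNA relative to both *su1* and *sh1*, in both replicates. The ratio of *sh1* to *su1* moved less, and was lower in both polysome libraries than in either mRNA library. The share of other gene pairs that separate in this way was not calculated, so these orderings are given as a description. Ratios with *sus1* were less clear. Relative to *bt2*, *sus1* was at 10.8 and 6.81 in mRNA and at 2.50 and 6.72 in polysome RNA, with almost no gap. Relative to *su1*, it was at 36.0 and 21.7 in mRNA and at 16.3 and 41.3 in polysome RNA, with overlapping ranges.

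The m6A peaks were examined next, as called by the authors in each replicate separately against the input library. More peaks were called in replicate 2 (30378) than in replicate 1 (17371), so a peak in replicate 2 alone is given as a description. A replicate 1 peak with 1 bp or more in common with a peak of replicate 2 was taken as shared, and the m6A level is the fold enrichment at the summit, averaged over the replicates. Such peaks lay in the spans of 52.4% of the expressed coding entries and 4.76% of those with a mean mRNA FPKM below 1. Of the 8 genes, 3 had a shared peak. They were 2 of the 4 expressed genes, *bt2* and *su1*, and 1 of the 4 genes below 1, *sh2*. None of the 8 spans overlaps another annotated entry, so these peaks belong to no second gene.

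The highest m6A level was that of *bt2*. Its peak ran from 61321160 to 61321320 in replicate 1 and from 61321156 to 61321340 in replicate 2, with fold enrichments of 12.1 and 18.3, or 15.2 on average. The −log10 q was 34.7 and 52.6. This level was above that of 95.6% of the 10167 expressed genes with a shared peak. It was also above that of 95.8% of the 5204 such genes within a factor of 2 of its mRNA FPKM. The summits lay 109 and 100 bp before the annotated 3′ end.

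For *su1* the peak ran from 43118852 to 43119111 in replicate 1 and from 43118853 to 43119120 in replicate 2. Its fold enrichments were 8.92 and 14.2, or 11.5 on average, above those of 85.3% of expressed genes with a shared peak and 68.6% of the 2788 with like mRNA FPKM. Its peaks of 260 and 268 bp were the widest among the 8 genes, and the summits lay 106 and 93 bp before the 3′ end. In both *bt2* and *su1* the fold enrichment was higher in replicate 2. The values of the 2 genes overlap, so the order of their levels is not fixed by the replicates, although *bt2* was the higher within each replicate.

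The gene *sh2* carried a shared peak although its mRNA FPKM was about 0.1. The peak ran from 219980017 to 219980090 in replicate 1 and from 219980018 to 219980100 in replicate 2, with fold enrichments of 11.0 and 9.43, or 10.2 on average, and a −log10 q of 16.7 and 13.1. The summits were 97 and 93 bp from the 3′ end. Of the 5141 coding entries with a mean mRNA FPKM above 0 and under 0.2, 174 had a shared peak (3.38%). A fold enrichment is relative to the input under the peak, which was low for this gene, and the part this has in the value was not tested.

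In *ae1* a peak was called in replicate 2 alone, from 172413128 to 172413184, with a fold enrichment of 6.59, a −log10 q of 6.26, and a summit 156 bp from the 3′ end. In *sh1* a peak was likewise called in replicate 2 alone, from 10912722 to 10912875, with a fold enrichment of 1.87 and a −log10 q of 2.52, close to the authors' limit. A stronger shared peak, with fold enrichments of 6.29 and 6.39, lay 1233 and 1232 bp beyond the end of *sh1*. It falls inside the neighbouring gene *Zm00001d045043*, on the opposite strand, whose 3′ end is separated from that of *sh1* by 828 bp. This peak was not assigned to *sh1*.

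The most abundant gene, *sus1*, had no peak in either replicate, in its span or within 3000 bp of it, and the same held for *wx1* and *su2*. Among the coding entries within a factor of 2 of the mRNA FPKM of *sus1* and *sh1*, 52.2% of 2105 and 52.7% of 2219 had a shared peak. Both outcomes are thus common at this abundance. For *wx1* and *su2*, the shares among entries of like mRNA FPKM were 2.53% and 8.50%, and at such levels a missing peak says little about the RNA.

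**Figure D3:**
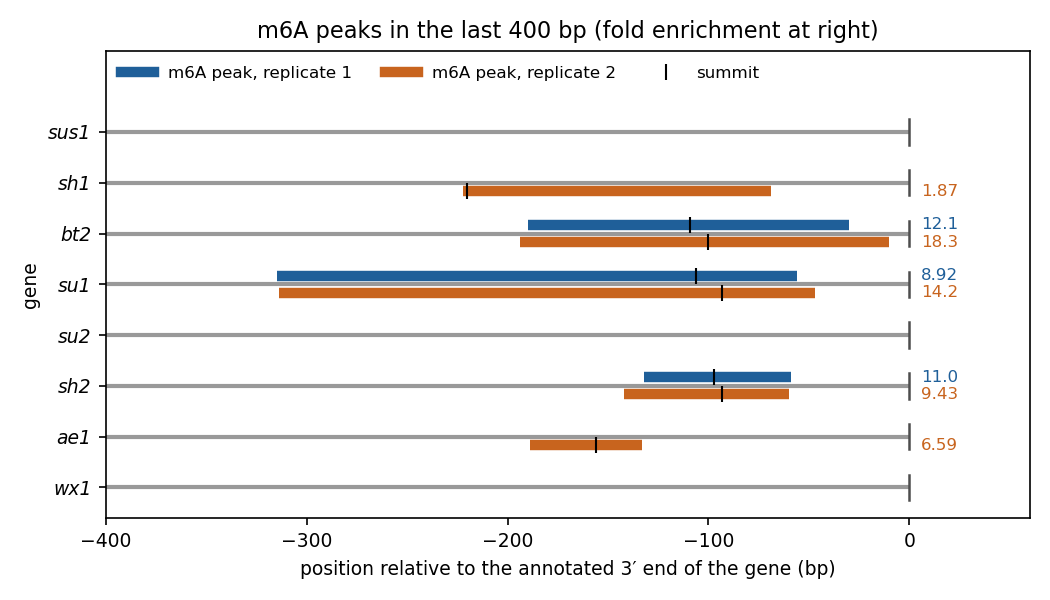
Peaks in the last 400 bp of each gene, as distance from the annotated 3′ end in bp, with replicate 1 in blue above the line and replicate 2 in orange below; ticks mark summits and the numbers at the right are fold enrichments. In *bt2*, *su1*, and *sh2* the peaks of both replicates coincide, with summits 93 to 109 bp from the end, whereas *sh1* and *ae1* have a peak in replicate 2 only.

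The summits of the 3 shared peaks were close together in their distance from the gene end, at 97, 109, and 106 bp in replicate 1 and at 93, 100, and 93 bp in replicate 2. Over all 13837 shared peaks with a summit inside exactly 1 gene, the median of this distance was 220 bp, with quartiles of 124 and 903 bp. The 3 genes therefore lay nearer to the annotated end than the lower quartile. The distances count genomic bases from the deposited gene ends, and the position relative to the stop codon was not analysed here.

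**Figure D4:**
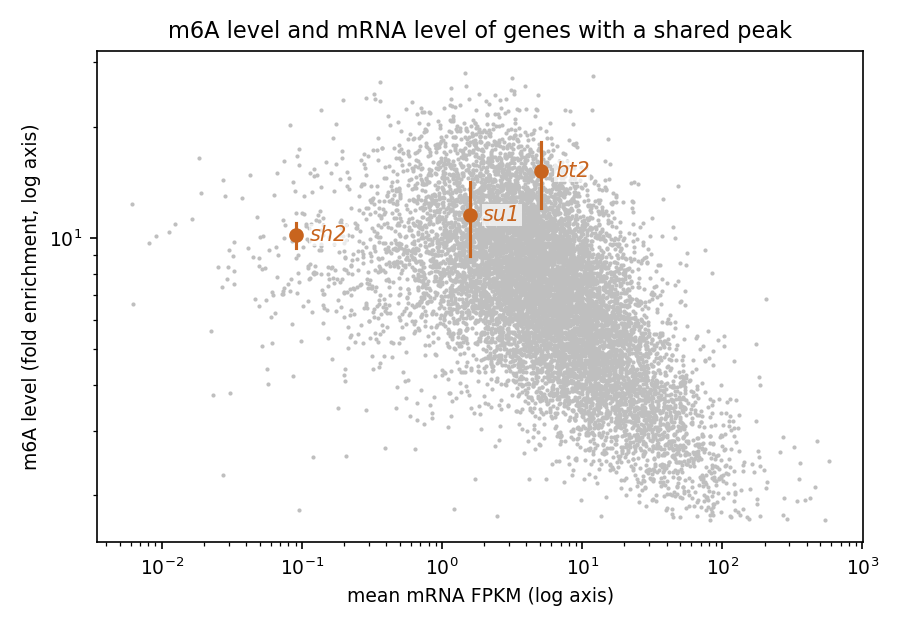
m6A level (fold enrichment, mean of 2 replicates) against mean mRNA FPKM, both on log axes, for all genes with a shared peak and an mRNA FPKM above 0 (grey), with *bt2*, *su1*, and *sh2* in orange and bars joining the 2 replicates. The gene *bt2* lies near the upper edge of the genes of like abundance, at 15.2, and *sh2* lies at the sparse left side at 0.0907 FPKM.

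Considering the 3 layers side by side, the genes differed in their combination. The sucrose synthase genes combined the highest mRNA FPKM of the 8 with no shared peak. With same-numbered libraries divided, the ratio was under the median in both replicates for *sh1* and in replicate 1 alone for *sus1*. Those libraries are not known pairs. The gene *bt2* combined a moderate mRNA FPKM with the highest m6A level and the highest ratio among the expressed genes, whereas *su1* combined a low mRNA FPKM, a shared peak, and a ratio under the median. With 4 expressed genes, no relation between the layers was calculated.

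Finally, the coding genes most like *sus1* were sought by the Euclidean distance of log2(FPKM + 0.1) over the 4 mRNA and polysome libraries. The nearest were *Zm00001d034919*, *Zm00001d041119*, and *Zm00001d049191*, at distances of 0.65, 0.70, and 0.72. Their mRNA FPKM lay between 36.4 and 49.0 and their polysome FPKM between 17.7 and 31.0, values that the choice itself used. The polysome values of *sus1*, 13.6 and 37.1, lay outside that polysome range on either side. Each of the 3 had 1 shared m6A peak, a measure not used in the choice, which *sus1* lacked. Of coding entries with like mRNA FPKM, 52.2% had such a peak, so both outcomes are common.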

How the data were processed

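The authors trimmed reads with Trimmomatic 0.35 and mapped them with Hisat2 2.1.0 to the B73 genome (AGPv4.38). Reads of Mo17 alleles were thus counted by their match to B73. The deposited FPKM per gene were estimated by the authors with StringTie and used unchanged. For m6A-seq the authors called peaks with MACS2 at q under 0.01 in each replicate. The deposited peaks hold a fold enrichment ratio, −log10 P and −log10 q values, and a score equal to 10 times the −log10 q without its decimals.

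Groups came from the sample labels. The replicate tables of a kind differed in 30845 (mRNA) and 30298 (polysome) entries. Low FPKM were searched for steps of whole reads: of 682 gene pairs below 0.08, only 7 shared the commonest ratio between the mRNA libraries. The test of polysome against mRNA FPKM used limma 3.58.1 (R 4.3.3; lmFit, then eBayes with a mean-variance trend), since the count models named in the study's methods could not be applied to FPKM. Tested on simulated data of this comparison, it recovered 192 of 200 genes given a log2 change of 3, with 4 false calls among 19518 genes. In the real data, the log2 fold changes of the expressed genes described here ran only from −1.11 (*sh1*) to 0.10 (*bt2*). Of all entries tested, 43.4% passed in either direction. Changes of that size, or in so large a share of entries, were not simulated. Recovery and false calls under those conditions were therefore not tested.

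The rule for the 8 genes uses identifiers only, but the genes and tests were proposed with earlier results of these data known. The text names the 8 genes and the 3 nearest to the most abundant one. A planned list of other pathway genes and of tissue markers was not used here, because 0 identifiers of this form are in the RefSeq table. Of the 8 symbols, 6 are in that table, and all 6 are on the chromosome of the deposited identifier. Alternatives covered the pseudocount, the filter, the scale, the replicate block, the spread model, each left-out library, and the definition of peaks. Python 3.11.15 with pandas 2.3.3, numpy 2.4.6, and matplotlib 3.10.9 was used.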

Additional observations from a re-analysis of the deposited data

How the results depend on the processing

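Of the 8 genes, 4 were expressed under every definition tried. On the scale without ENSRNA entries 2 passed as lower in polysome RNA (*sh1* and *su1*), beside 45.1% of all entries tested. Since *su1* reached the filter through its mRNA values, its call is a description. On the deposited scale the number passing as lower was 1, beside 22.2% of all entries tested. It ranged from 0 to 2 when 1 library was left out. The call of *sh1* was lost without mRNA replicate 2, where its log2 fold change was −1.04. In every limma fit of all 4 libraries 0 passed as higher, also at an unadjusted limma P of 0.05. The share of all entries at that unadjusted limit was not calculated. Under other pseudocounts, filters, and spread models and with libraries centred on their medians the number passing as lower stayed at 1. Median centring changed the split over all entries to 5239 higher and 3350 lower, since it moved the median log2 difference from −0.14 to 0.09. On the scale without ENSRNA entries 1817 were higher and 8786 lower, with a median of −0.79. With 1 library left out, entries past the threshold numbered 4736 to 5568, of which 2704 to 2893 were higher and 1843 to 2864 lower, with the lone library assumed to vary like the others. The log2 fold change of *bt2* turned from 0.10 to −0.55 without ENSRNA entries, and ranged from −0.00056 to 0.21 with 1 library left out. Without the filter on low FPKM, 6337 of 32415 entries passed, and *su2*, *sh2*, *ae1*, and *wx1*, then tested, had log2 differences from −0.59 to 0.08 (limma adjusted P from 0.318 to 0.894). Counting all peaks of replicate 2, 5 genes had a peak in place of 3, beside 13586 in place of 11330 over all entries. Replicate 2 had 30378 peaks against 17371 in replicate 1. The other definitions of peaks left the number at 3. With the replicate number as a block, 7886 entries passed in place of 8464. The deviations of same-numbered libraries had a correlation of 0.016, so the numbers were not taken as pairs. The block changed no call among the 8 genes. The alternatives for the pathway list were not run. The precision rests on 2 replicates per kind, and the depth is unknown.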
